A study of Homo sapiens with 8 samples.

Results

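Most histone mRNAs carry no poly(A) tail. A small group of histone genes is known to give polyadenylated mRNAs as well, mainly in cells that differentiate or leave the cell cycle, and 6 genes of this group were examined here: HIST1H1C (linker histone H1.2), HIST1H2AC (a histone H2A), and HIST1H2BC, HIST1H2BD, HIST1H2BK and HIST2H2BE (histones H2B). They were chosen by name, from what is known of their transcripts, and are 6 of 25369 gene symbols and 6 of 72 replication-dependent histone genes in the table. RNA-seq was performed on MCF10A cells, a spontaneously immortalized, non-malignant human mammary epithelial line, after 7 days of encapsulation in 4 hydrogels with 2 libraries each. Soft IPN and stiff IPN are interpenetrating networks of alginate and reconstituted basement membrane (rBM), of which only the stiff ones had their alginate crosslinked with calcium. Soft col:rBM gels held collagen-1 (col-1) and rBM. The label of the stiff col gels names only col-1, while the methods give the same rBM concentration for all experiments. Whether the stiff col gels held rBM is thus not clear from the sources used here. All libraries come from the same unmodified line, so no deletion or drug is shared or compared. The step from soft col:rBM to stiff col changes stiffness and, by these labels, may change composition as well. The replicates are separate trials per the study's methods, and the 2 libraries of a gel are its only replicates. Replicates with the same number in different gels are taken here as the same trial, which the sources used do not state.

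In dividing cells, replication-dependent histone genes are transcribed in S phase, and their mRNAs end right after a short stem-loop that the stem-loop binding protein SLBP holds. Cleavage at this site leaves no poly(A) tail, and the mRNAs are degraded when DNA synthesis stops. Where a gene also has a poly(A) signal further downstream, read-through gives a tailed mRNA whose stability is not tied to S phase. The library kit used (TruSeq RNA v2) selects RNA by its poly(A) tail, so histone RNA without a tail is largely lost from such libraries.

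The stem-loops are shown because they are the 3′ ends that an untailed histone mRNA would have. All 6 genes hold one in a GENCODE 44 transcript, as do 61 of 61 other protein-coding replication-dependent histone genes that could be matched. It begins 27 bases after the stop codon in HIST1H1C, 43 in HIST1H2AC, 36 in each HIST1 H2B gene and 56 in HIST2H2BE. The sequences below are the DNA form, 5′ to 3′, with the paired stem in capitals and the loop in lower case.
HIST1H1C, HIST1H2AC and HIST2H2BE: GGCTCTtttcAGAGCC
HIST1H2BC, HIST1H2BD and HIST1H2BK: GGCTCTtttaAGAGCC
The form in HIST1H1C is the most common one, found in 39 of the matched histone genes, and the form in the HIST1 H2B genes is found in 9. The annotated ends beyond the stem-loop differ among the 6 genes. HIST2H2BE on chromosome 1 (GRCh37 149856009 to 149858232, minus strand) has a single transcript of 2224 bases that runs 1729 bases past the stem-loop, with a poly(A) signal AATAAA 24 bases before its end. HIST1H2BD on chromosome 6 (26158350 to 26171577, plus strand) has a spliced transcript of 789 bases without the stem-loop, with AATAAA 25 bases before its end, beside a 486-base transcript that ends 5 bases after the stem-loop. HIST1H2AC (chromosome 6, 26124373 to 26139344, plus strand) has a 2-exon transcript of 1668 bases with AATAAA 29 bases before its end, beside the 519-base one. HIST1H2BC (chromosome 6, 26086545 to 26124154, minus strand) has spliced transcripts of 659 and 2548 bases, whose last AATAAA lies 194 and 1558 bases before the end. For HIST1H1C (chromosome 6, 26055968 to 26056698, minus strand) and HIST1H2BK (chromosome 6, 27114140 to 27114634, minus strand) only a short transcript ending 4 or 5 bases after the stem-loop is annotated. In all, 3 of the 6 genes had a transcript with AATAAA in its last 50 bases, against 13 of the 61 other coding histone genes. Counted by transcript and not by gene, 37.3% of all protein-coding transcripts have AATAAA there, and 0.0751% of all protein-coding transcripts end in such a stem-loop. The HIST1H2AC transcript of 1668 bases is annotated as subject to nonsense-mediated decay, a type left out of these 2 shares. The values are per gene, so reads from short and long transcripts cannot be told apart.

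The 250 bases before the start of the main transcript are shown for 5 of the genes, because the values of the genes varied together across the libraries (below) and all except HIST2H2BE lie on chromosome 6. HIST1H2AC and HIST1H2BC are divergent neighbours with 245 bases between their starts, so 1 sequence serves both. Sequences are from GRCh37, 5′ to 3′ on the strand of the gene named, with matches to a TATA box, a CCAAT box and the octamer (letters given below) on either strand in capitals.
HIST1H1C, chr6:26056699-26056948, minus strand: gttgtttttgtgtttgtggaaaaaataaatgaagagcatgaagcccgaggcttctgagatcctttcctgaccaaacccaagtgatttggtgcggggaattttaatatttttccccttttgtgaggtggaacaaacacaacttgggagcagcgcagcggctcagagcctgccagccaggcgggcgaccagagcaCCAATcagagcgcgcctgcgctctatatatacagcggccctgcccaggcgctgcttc
HIST1H2AC, chr6:26124150-26124399, plus strand: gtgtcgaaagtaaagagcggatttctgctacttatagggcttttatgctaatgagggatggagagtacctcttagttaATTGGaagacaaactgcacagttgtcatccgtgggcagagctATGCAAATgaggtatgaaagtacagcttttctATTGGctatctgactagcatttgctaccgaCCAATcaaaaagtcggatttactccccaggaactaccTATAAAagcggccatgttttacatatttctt
HIST1H2BD, chr6:26158100-26158349, plus strand: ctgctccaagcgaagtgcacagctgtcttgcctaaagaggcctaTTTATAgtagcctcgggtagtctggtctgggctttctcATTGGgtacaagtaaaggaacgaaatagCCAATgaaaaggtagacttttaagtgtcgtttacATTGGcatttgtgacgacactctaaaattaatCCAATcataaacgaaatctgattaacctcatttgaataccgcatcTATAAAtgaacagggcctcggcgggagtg
HIST1H2BK, chr6:27114635-27114884, minus strand: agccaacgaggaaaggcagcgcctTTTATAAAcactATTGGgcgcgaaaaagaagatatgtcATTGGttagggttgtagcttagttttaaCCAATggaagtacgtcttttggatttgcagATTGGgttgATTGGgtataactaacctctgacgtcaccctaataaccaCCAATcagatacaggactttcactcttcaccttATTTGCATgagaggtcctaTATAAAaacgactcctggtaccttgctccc
HIST2H2BE, chr1:149858233-149858482, minus strand: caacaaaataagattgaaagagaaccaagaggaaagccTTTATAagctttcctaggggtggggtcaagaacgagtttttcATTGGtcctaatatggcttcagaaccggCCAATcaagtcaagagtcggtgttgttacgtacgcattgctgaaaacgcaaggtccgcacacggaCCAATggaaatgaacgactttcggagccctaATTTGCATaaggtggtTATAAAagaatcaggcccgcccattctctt
A CCAAT box (these 5 letters) lies in all 6 windows, against 34.3% of 19869 protein-coding promoters of the same length and 84.7% of 59 other histone promoters. The TATA box, bound by the general transcription machinery and searched as TATAAA, is in 5 of 6 (9.25% of all promoters, 66.1% of the other histone promoters), and in HIST1H2BC it is the one that faces HIST1H2AC. The octamer ATTTGCAT, known as the binding site of OCT1 in H2B promoters, is in HIST1H2BK, HIST2H2BE and the shared HIST1H2AC and HIST1H2BC window (1.53% of all promoters, 33.9% of the other histone promoters). It starts 49 and 46 bases before the start in HIST1H2BK and HIST2H2BE. Matches are described as letters in these windows only, and their bearing on the values was not tested.

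The polyadenylated genes made up most of the values of the replication-dependent histone genes in every library. Normalized counts, the unit used throughout, are the read counts on a gene that the authors scaled by 1 factor per library and rounded. Summed over the 6 genes, they were 81.0% to 91.3% of the values of all 72 replication-dependent histone genes in a library. Of the other 66 genes, 19 were at 0 in all 8 libraries and 44 were at or under 3 reads in all, which is the limit set by counting error (2.41 to 3.73 normalized counts, depending on the library). With a mean of at least 10 there were 3, named here after their values were seen: HIST3H2A (70 to 222), the pseudogene HIST2H2BC (7 to 23) and HIST1H3E (3 to 23). The low values of the others are in part those of genes that unique reads cannot reach. Of the 18 matched coding genes at 0, 5 (HIST2H2AA3, HIST2H3A, HIST2H3C, HIST2H4A and HIST2H4B) have a coding part in which all 50-base stretches also occur in another histone transcript, and multimapped reads had been removed, so their 0 says nothing of expression. Of all 61 other coding genes, 12 share at least 50% of these stretches, while the median is 0%. Transcripts still listed under an older HIST symbol, such as that of HIST2H2AA3, were not among those compared with. The counts of 5 and 12 are thus lower bounds, and the 30.5% found for HIST2H2AA4, which is also at 0, leaves HIST2H2AA3 out. The share of 81.0% to 91.3% is thus one of uniquely mapped reads. RNAs that have no tail, such as RPPH1 and RMRP (the RNAs of RNase P and RNase MRP), summed to 2 to 20 per library over the 7 of 12 such genes on the list that are in the table.

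**Figure D1:**
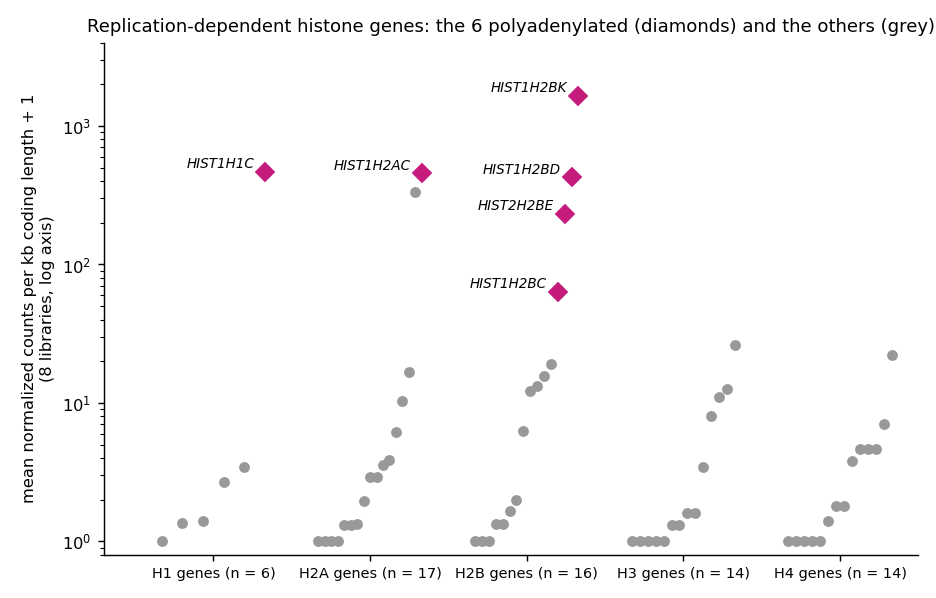
Mean normalized counts per kb of coding length plus 1 over 8 libraries (log axis) of 67 protein-coding replication-dependent histone genes, by histone type, with each point 1 gene. The 6 polyadenylated genes (diamonds) lie between 62.2 and 1655 per kb, and the only grey point among them is HIST3H2A at 331.

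Per kb of coding length, HIST1H2BK was the highest of the 6, at a mean of 1655 normalized counts per kb over the 8 libraries. HIST1H1C (466), HIST1H2AC (454) and HIST1H2BD (424) came next and were close to each other, followed by HIST2H2BE (231) and HIST1H2BC (62.2). This order rests on the length used, since reads were counted over whole genes. Per kb of the main transcript (single-exon in all 6) HIST2H2BE, whose transcript is 2224 bases long, had 39.2 normalized counts and HIST1H2BC 51.1, while the other 4 had 330.0 (HIST1H2BD) to 1264 (HIST1H2BK). The median of the other coding histone genes was 0.661 per kb, and HIST3H2A alone was in the range of the 6, at 331 per kb of coding length. Per kb of transcript it had 144, and the next of the other coding genes (HIST1H3E) had 21.5. Neither the H3 nor the H4 genes, 14 of each, reached the level of HIST1H2BC. A poly(A) signal at an annotated end did not go with the level gene by gene. HIST1H1C, HIST1H2BC, HIST1H2BK and HIST3H2A have none in the release used, and of these HIST1H2BC was the lowest of the 6 per kb of coding length. Only AATAAA in annotated transcripts was searched. For HIST1H1C and HIST1H2BK these end just after the stem-loop, so a signal further downstream could not have been found. Of the 13 other histone genes that have one, 1 (HIST1H3E) had a mean of at least 10. Histone genes resemble each other, and reads that mapped to several places had been removed. Of the 50-base stretches in the main transcript, 57.2% of those of HIST1H2BK also occur in another histone transcript, against 12.7% for HIST1H2BC, 10.1% for HIST1H2BD, 8.00% for HIST2H2BE, 1.49% for HIST1H2AC and 0% for HIST1H1C. Over the coding part alone it is 73.9% for HIST1H2BK and 52.9% for HIST2H2BE, against at most 15.8% for the other 4. The levels of HIST1H2BK and HIST2H2BE are uncertain for this reason. Transcripts under an older HIST symbol were left out here as well, so the shares are lower bounds. HIST1H2BC and HIST1H2BD also overlap 4 annotated genes each, HFE, H4C3 and H1-6 among those of HIST1H2BC, and the strand setting of the counting was not given in the sources used here.

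Between the gels, none of the 6 genes differed by more than the spread between the 2 libraries allows to call. HIST1H1C had 524 and 177 normalized counts in soft IPN (replicates 1 and 2), 336 and 341 in stiff IPN, 486 and 122 in soft col:rBM, and 302 and 92 in stiff col. Its mean thus ran from 350.5 ± 245 (SD, n = 2) in soft IPN over 338.5 ± 3.54 in stiff IPN and 304.0 ± 257 in soft col:rBM to 197.0 ± 148 in stiff col, and the libraries of neighbours in this order overlapped, with those of stiff IPN inside the range of both soft gels. HIST1H2AC had 258 and 113 in soft IPN, 156 and 207 in stiff IPN, 277 and 120 in soft col:rBM, and 184 and 101 in stiff col. All 4 gels overlapped, with the highest mean in soft col:rBM (198.5 ± 111) and the lowest in stiff col (142.5 ± 58.7).

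HIST1H2BC, the least abundant, had 31 and 5 in soft IPN, 35 and 23 in stiff IPN, 46 and 10 in soft col:rBM, and 25 and 13 in stiff col. Its value in soft IPN replicate 2 was near the level of 3 reads (3.39 in that library), and the means of 18.0 ± 18.4 to 29.0 ± 8.49 overlapped throughout. HIST1H2BD had 244 and 106 in soft IPN, 178 and 257 in stiff IPN, 222 and 85 in soft col:rBM, and 102 and 89 in stiff col. Both stiff IPN libraries were above both stiff col libraries (217.5 ± 55.9 and 95.5 ± 9.19), and the soft gels spanned the range between and beyond them.

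HIST1H2BK had 846 and 466 in soft IPN, 648 and 901 in stiff IPN, 694 and 422 in soft col:rBM, and 576 and 453 in stiff col. HIST2H2BE had 103 and 46 in soft IPN, 86 and 218 in stiff IPN, 92 and 39 in soft col:rBM, and 62 and 52 in stiff col. For these 2 H2B genes, as for HIST1H2BD, the gel means fell in the order stiff IPN, soft IPN, soft col:rBM and stiff col, from 774.5 ± 179 to 514.5 ± 87.0 for HIST1H2BK and from 152.0 ± 93.3 to 57.0 ± 7.07 for HIST2H2BE. Neighbours in that order overlapped, and stiff IPN and stiff col did not.

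**Figure D2:**
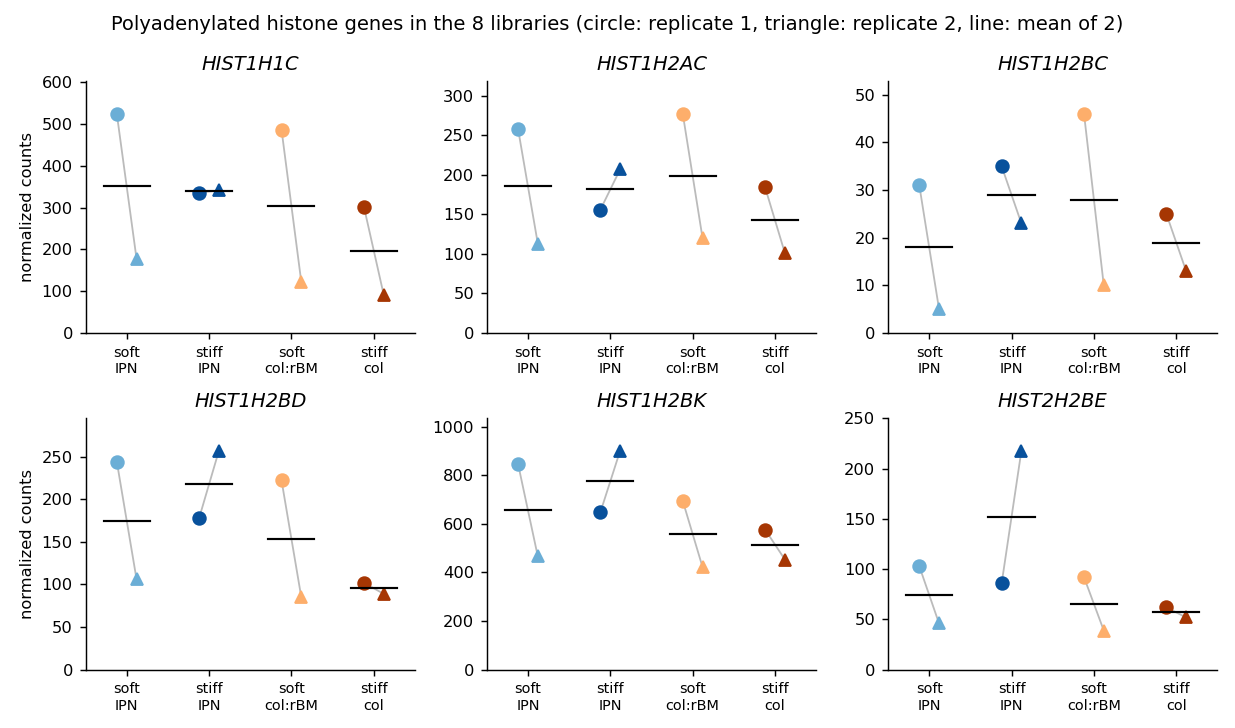
Normalized counts (linear axis from 0) of each polyadenylated histone gene in the 8 libraries, by gel, with replicate 1 as a circle, replicate 2 as a triangle and the mean of 2 as a line. Replicate 2 lies below replicate 1 in every panel for soft IPN, soft col:rBM and stiff col, while in stiff IPN it lies above it for all genes except HIST1H2BC.

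To ask whether stiffness changes these genes where no col-1 was added, stiff IPN was compared with soft IPN. All 6 estimates were positive on the log2(value + 1) scale used for all fold changes, from 0.07 ± 0.55 (SE) for HIST1H2AC to 1.08 ± 0.95 for HIST1H2BC and 0.98 ± 0.62 for HIST2H2BE. None was called by limma, with 1 mean per gel and Benjamini-Hochberg adjustment over 13369 genes (lowest adjusted p = 0.616), and none had an unadjusted p under 0.05. The background was also empty, with 0% of all genes called and 1245 genes at an unadjusted p under 0.05. With the replicate number as a block, 3.82% of all genes were called and again 0 of the 6 (lowest adjusted p = 0.241). The 2 trials went opposite ways. In replicate 1, 5 of 6 genes were lower in stiff IPN, with differences of -0.26 to -0.72, and HIST1H2BC was higher by 0.17. In replicate 2 all 6 were higher, by 0.87 (HIST1H2AC) to 2.22 (HIST2H2BE). Without soft IPN replicate 2, 5 of the 6 estimates turned negative.

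Between the collagen gels, all 6 estimates were negative in stiff col relative to soft col:rBM and all were small against their errors, from -0.08 ± 0.62 (HIST2H2BE) to -0.54 ± 0.82 (HIST1H1C). Limma called 0 of 6 and 0% of all genes, with or without the block, and no gene of the 6 had an unadjusted p under 0.05. When only the 4 collagen gel libraries were fitted with the block, a setting chosen after the data were seen, HIST1H1C was called by limma (adjusted p = 0.0243) where 7.07% of all genes were. Its difference was -0.68 in replicate 1 and -0.40 in replicate 2. All 6 estimates turned positive without soft col:rBM replicate 1, with a median of 0.36 in place of -0.34.

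Of the 4 gel comparisons run, the one between the stiff gels had the median furthest from 0, though HIST1H2BC differed more between the IPNs and HIST1H2AC slightly more between the collagen gels. Stiff col was below stiff IPN in all 6 estimates, from -0.40 ± 0.55 (HIST1H2AC) to -1.16 ± 0.55 (HIST1H2BD) and -1.26 ± 0.62 (HIST2H2BE), with a median of -0.82 against 0.0038 over all genes tested. The libraries did not overlap for HIST1H1C, HIST1H2BD, HIST1H2BK and HIST2H2BE, yet 2 against 2 libraries allow no exact two-sided permutation p under 0.333. The share of all genes tested without overlap was not counted, so this number of genes has no background to be read against. Limma called 0 of 6 and 0% of all genes (lowest adjusted p among the 6 = 0.799). With the block 2.47% of all genes were called and 0 of the 6, of which HIST1H2BD (unadjusted p = 0.0275, adjusted 0.206) and HIST1H1C (0.0427, adjusted 0.247) had an unadjusted p under 0.05. In the same limma fit 18.9% of all genes tested had one. Most of the difference came from replicate 2, where it was -0.78 to -2.05, against 0.24 to -0.80 in replicate 1.

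The comparison of the soft gels had the median closest to 0 of the 4 (-0.21), although HIST1H2BC, HIST1H2BK and HIST2H2BE were closer between the collagen gels. From soft IPN to soft col:rBM, 2 estimates were positive and 4 negative (-0.32 ± 0.82 for HIST1H1C to 0.71 ± 0.95 for HIST1H2BC), limma called 0 of 6 and 0% of all genes, and with the block 0 of 6 and 0.0224%, with no unadjusted p under 0.05 among the 6 in either fit. Each of the 6 genes moved the same way in both trials, with HIST1H2BC (0.55 and 0.87) and HIST1H1C (-0.11 and -0.53) furthest from 0. The difference between the 2 stiffness effects (collagen gels less IPNs) was negative for all 6 genes, from -0.37 ± 0.52 (HIST1H2BK) to -1.34 ± 1.35 (HIST1H2BC). It was called for none of them and had no unadjusted p under 0.05, where 0% of all genes were called without the block and 0.015% with it. The comparisons share gels, so their estimates are not independent of each other.

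**Figure D3:**
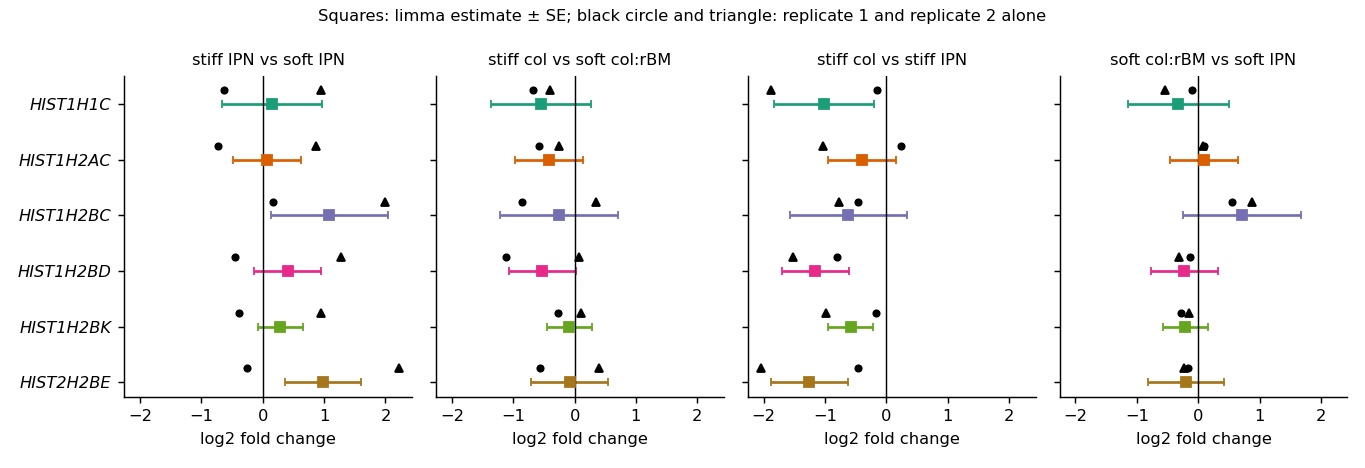
Log2 fold changes of the 6 genes in the 4 gel comparisons (squares with bars of 1 SE, limma, n = 2 libraries per gel) and the same difference within replicate 1 (circles) and replicate 2 (triangles) alone. The circles and triangles fall on opposite sides of 0 for 5 of 6 genes from soft IPN to stiff IPN and close together between the soft gels.

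The trials were compared next. HIST1H1C and HIST1H2BC were lower in replicate 2 than in replicate 1 in the limma fit with the gel as a block. The log2 difference was -1.31 ± 0.30 (SE, adjusted p = 0.0174) for HIST1H1C and -1.497 ± 0.37 (adjusted p = 0.0220) for HIST1H2BC. These 2 of 6 genes were called where 27.1% of all genes were (1693 higher, 1926 lower), so the share is near the background. The other 4 had negative estimates that were not called, of -0.71 ± 0.27 for HIST1H2AC (adjusted p = 0.0829), -0.56 ± 0.31 for HIST1H2BD, -0.36 ± 0.21 for HIST1H2BK and -0.32 ± 0.40 for HIST2H2BE. The call depended on single libraries. Leaving out any library of soft IPN or soft col:rBM ended both calls (adjusted p = 0.0769 to 0.0966), and leaving out one of stiff col ended that of HIST1H1C (adjusted p = 0.0845 and 0.0900).

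Stiff IPN stood apart in this respect. The log2 difference of HIST1H1C between the trials was -1.56 in soft IPN, -1.99 in soft col:rBM and -1.70 in stiff col, but 0.02 in stiff IPN. The median log2 difference of the 6 genes was -1.19 in soft IPN, -1.30 in soft col:rBM and -0.60 in stiff col, with 6 of 6 lower in replicate 2 in each. It was 0.44 in stiff IPN, with 5 higher, while the median of all genes tested was between -0.0087 and 0 in the 4 gels. With both stiff IPN libraries left out, a setting chosen after the data were seen, all 6 genes were called lower in replicate 2, from -0.64 ± 0.12 (HIST1H2BK) to -1.80 ± 0.36 (HIST1H2BC), where 43.6% of all genes were called.

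**Figure D4:**
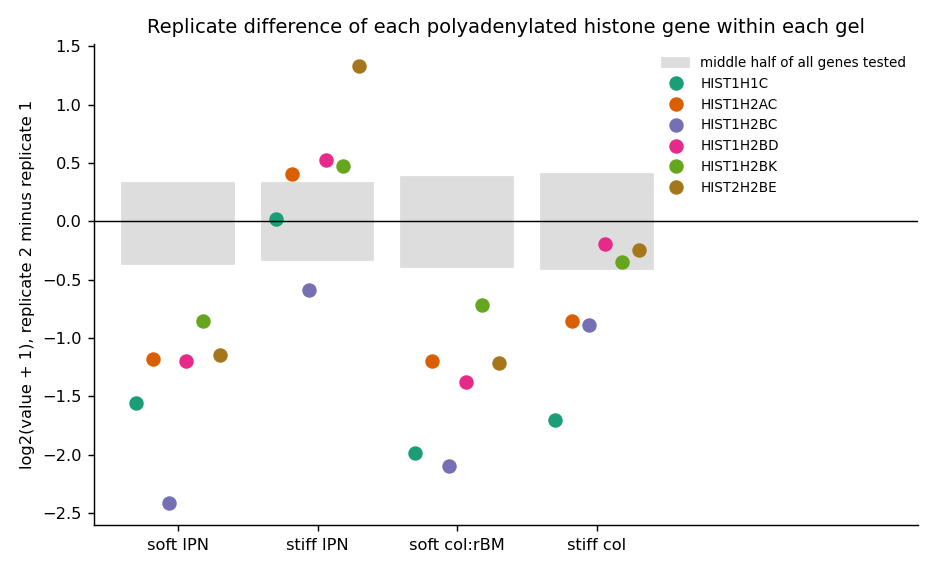
Difference in log2(value + 1) between replicate 2 and replicate 1 for each of the 6 genes within each gel (1 pair of libraries per gel, no error), over the range between the quartiles of all 13369 genes tested (grey). In stiff IPN the points lie between -0.59 and 1.33, and in the other gels they all lie below 0.

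Proliferation genes differed between the trials in the opposite direction. Of 24 listed genes for DNA replication and mitosis, 24 were higher in replicate 2 in soft IPN, in soft col:rBM and in stiff col, but 12 higher and 12 lower in stiff IPN. With the gel as a block limma called 13 of 24 higher and none lower (27.1% of all genes were called in either direction), PCNA (the clamp that holds DNA polymerase), E2F1 (a transcription factor of S phase entry) and MCM4 (part of the replicative helicase) with the smallest adjusted p. E2F1 had 34 and 116 normalized counts in soft IPN, 101 and 160 in stiff IPN, 45 and 117 in soft col:rBM, and 32 and 139 in stiff col. The summed values of the 24 genes were 16164 to 22943 in replicate 1 libraries and 20821 in stiff IPN replicate 2, against 30043 to 33363 in the other replicate 2 libraries. The genes of the list did not all follow this sum. In stiff IPN replicate 2, E2F1 (160) was the highest of all libraries, and PCNA (1668) and MCM4 (1415) were above all replicate 1 libraries (692 to 1296 and 506 to 1205), while TOP2A, a topoisomerase of mitosis named after its values were seen, was the lowest of all (1461). The summed values of the 6 histone genes were 1251 to 2006 in the former 5 libraries and 798 to 913 in the latter 3. On these sums the libraries fell into separate groups and no correlation is given. The part of proliferation in the histone difference was not tested.

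**Figure D5:**
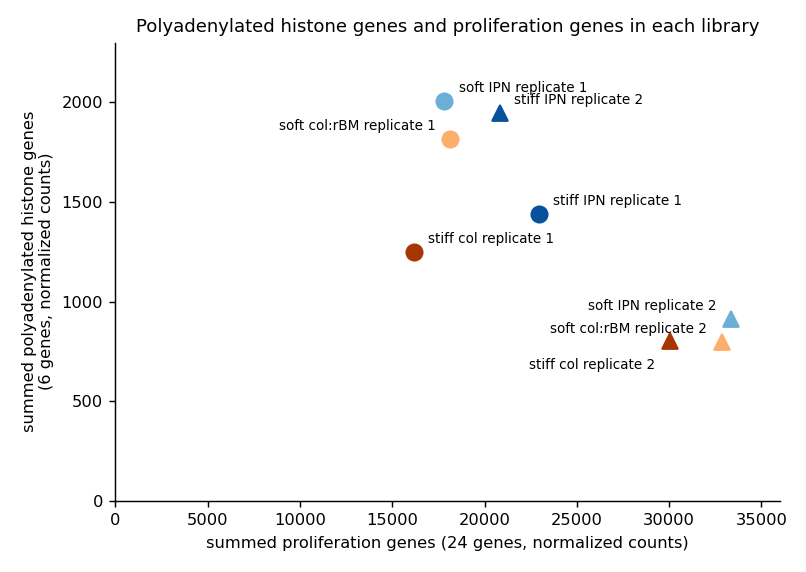
Summed normalized counts of the 6 polyadenylated histone genes against those of 24 proliferation genes, 1 point per library (circles replicate 1, triangles replicate 2). The 3 replicate 2 libraries of soft IPN, soft col:rBM and stiff col lie at the lower right, and stiff IPN replicate 2 lies with the replicate 1 libraries.

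Genes that act on histones were compared between the trials by lists. Of 15 genes for histone transcription and 3′ end processing, 1 was called, CSTF2 (a cleavage factor of polyadenylation), higher by 0.77 ± 0.18 in replicate 2 (adjusted p = 0.0179). SLBP had 787 to 953 normalized counts and NPAT, the activator of histone genes at the histone locus body, 198 to 324, and neither was called in any comparison. Of 14 histone chaperones, 7 were called higher and 1 lower (again beside 27.1% of all genes), with ASF1B (1.40 ± 0.23), CHAF1A (1.08 ± 0.18) and CHAF1B (0.70 ± 0.17), which load newly made histones on DNA, all higher. None of these 29 genes was called in a gel comparison.

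Histone genes outside the 6 behaved in different ways. Of the other 66 replication-dependent genes, 6 passed the filter on low values. Of these 1 was called between the trials, where 27.1% of all genes were: HIST3H2A, with a difference of -0.84 ± 0.17 in replicate 2 (limma, adjusted p = 0.0122). Of 11 replication-independent variants tested, most of whose mRNAs are tailed, 3 were called lower and 2 higher in replicate 2, again beside 27.1% of all genes. H1F0, the linker histone H1.0 of non-dividing cells, was lower (-0.97 ± 0.12, adjusted p = 0.00289), as was the linker histone H1FX (-1.02 ± 0.15, 0.00466), while H2AFX, the variant phosphorylated at DNA breaks, which is known to give both stem-loop and tailed mRNAs, was higher by 0.94 ± 0.11 (0.00283). H2AFJ, named after its values were seen, was lower (-0.60 ± 0.17, adjusted p = 0.0361), and its 221, 198 and 205 normalized counts in replicate 2 of soft IPN, soft col:rBM and stiff col stood against 410 in stiff IPN and 339 to 399 in replicate 1. From soft to stiff IPN, H1F0 went the other way from the estimates of the 6 genes, at -0.91 ± 0.17 with the block (adjusted p = 0.0366, and 0.599 without it). Its estimate between the collagen gels was -0.45 and between the soft gels -0.33, neither called, with the sign of all 6 and of 4 of the 6 genes there. H3F3A, one of the genes for H3.3, was listed at 0 in all libraries, while H3F3B, another, had 6099 to 8094. Multimapped reads had been removed, and whether unique reads can reach H3F3A was not examined. Its 0 thus cannot be read as absence of expression.

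Of 14 cell cycle exit genes tested, 3 were lower and 2 higher in replicate 2, a share near the 27.1% called over all genes, RBL2 (the pocket protein p130 of quiescent cells, -0.80 ± 0.10) and FOXO3 (a forkhead factor, -0.69 ± 0.12) among the former and BTG2 (an antiproliferative gene, 1.03 ± 0.13) among the latter. Between the gels 1 was called, BTG1, lower in stiff IPN than in soft IPN (-0.62 ± 0.13) with the block (adjusted p = 0.0464, and 0.498 without it). As the 6 genes are known from differentiating cells, they were set beside squamous differentiation genes, the programme that mammary epithelial lines can enter in culture. With the block, 7 of 17 such genes were higher in stiff IPN than in soft IPN (3.82% of all genes were called) and 13 of 17 lower in stiff col than the stiff IPN libraries (2.47% of all genes), where none was called without it. S100A8, a calcium-binding protein of squamous epithelia, had 2109 and 3930 normalized counts in stiff IPN, 623 and 877 in soft IPN and 629 and 964 in stiff col, so that both trials went the same way. The 6 histone genes were higher in stiff IPN than in soft IPN in replicate 2 only, apart from HIST1H2BC. Between the trials 7 squamous genes were called higher in replicate 2 and 1 lower, beside 27.1% of all genes, with IVL (involucrin) higher by 1.57 ± 0.23, the opposite of the direction of HIST1H1C and HIST1H2BC. No test compared the 2 sets of genes.

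The 6 genes resembled each other across the libraries. Over the 8 libraries Pearson r of log2 values between pairs was 0.62 (HIST1H2BC and HIST2H2BE) to 0.95 (HIST1H2BD and HIST1H2BK), and after centring within each trial 0.43 to 0.97. HIST1H2AC and HIST1H2BC, which share a promoter region, had r = 0.82, and HIST2H2BE, on another chromosome, and HIST1H2BK had 0.94. The 0.82 was still the highest r of HIST1H2BC with any of the other genes examined. After centring it was 0.61, below the 0.77 of HIST1H2BC with HIST2H2BE. HIST1H2BC had as few as 5 normalized counts, so counting error weighs more on its r than on that of the more abundant genes. Of all genes tested, those closest to the mean profile of the 6 were TERF2IP, C22orf39 (both r = 0.96), USP18, BCO2 and FBXL16 over 8 libraries. After centring within trials they were TSNARE1 (0.99), OSGIN1, COMTD1, ADAMTS1 and TREX1. These values are descriptions over 8 libraries that share trials and scaling. The r between pairs of other genes was not worked out, so the values for pairs of the 6 have no background. The most similar of 13369 genes will have a high r in any case.

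The libraries held 14306848 to 17999273 normalized counts each, from an estimated 13065615 to 18592366 reads on genes. Epithelial markers summed to 60305 to 180686 normalized counts per library over 8 genes (KRT5 7417 to 44022), and markers of leukocytes, endothelium, mural cells and hepatocytes to 13 to 39 over 6 genes, with the leukocyte marker PTPRC at 0 in all libraries. The epithelial markers differed as well, with 5 of 8 called higher (KRT17, KRT5 and KRT14 foremost) and 1 lower in replicate 2, beside 27.1% of all genes. With the block 2 were called higher and 1 lower in stiff IPN than in soft IPN (3.82% of all genes were called). With the block 4 were also called lower in stiff col relative to stiff IPN (2.47% of all genes). In bulk RNA, fewer cells that express a gene and less RNA per cell cannot be told apart.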

How the data were processed

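RNA-seq of MCF10A cells in 4 hydrogels (2 libraries each) was analysed. The authors trimmed reads with Trim Galore 0.3.3, aligned them to hg19 (the processing notes name TopHat2 2.0.13 and the methods Bowtie2), removed multimapped reads with SAMtools 1.1 and counted reads per gene with HTSeq. As the authors deposited them, the values are a scaled signal (each count multiplied by 1 factor per library, then rounded), so no count model was used. Which gene annotation and strand setting were counted is not given in the sources used here. All value columns were used (0 left out). Of 25369 symbols, 28 had turned into dates. They were not removed, so any of them that passed the filter below is among the genes tested.

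Genes with a value of at least 10 in at least 2 libraries (13369, all 6 histone genes among them) were tested on log2(value + 1) with limma 3.58.1 (R 4.3.3, trend and robust moderation, Benjamini-Hochberg adjustment, threshold 0.05). The fit had 1 mean per gel. The replicates of a gel are separate trials per the study's methods. That the same replicate number marks the same trial in different gels was assumed from the numbering and is not stated there. The replicate differences correlated in all 6 pairs of gels. In the pairs with stiff IPN r was 0.278 to 0.398, and in the pairs without it 0.654 to 0.819, so the pairing is less clear for stiff IPN. A fit with the replicate number as a block is given beside the results, and replicate 2 was compared with replicate 1 with the gel as a block. The script was tested on simulated data. P values cover the spread between these libraries only. Intervals from read depth cover counting error only, since reads carry no molecular identifiers.

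The 6 genes, the gene lists, the comparisons and the alternatives were chosen with earlier results of these data known. Genes named were the 6, and from each other list up to 3 called genes per comparison with the smallest adjusted p (where none was called, the 2 with the highest mean). The 5 genes closest in profile, before and after centring within trials, were also named. SLBP, NPAT, H2AFJ, HIST2H2BC, HIST1H3E, TOP2A and the cell type markers were named outside this rule. Alternatives were another pseudocount, filter, scaling, moderation, set of libraries or block, and leaving out each library.

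Positions, transcripts and sequences are from GRCh37 with GENCODE 44 (lifted to GRCh37). Older histone symbols were matched through RefSeq synonyms (GRCh38.p14), which gave 63 of the other 66 histone genes and all 6 examined. Motifs were searched on both strands. Python 3.11.15 with numpy 2.4.6, pandas 2.3.3 and matplotlib 3.10.9 was used.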

Additional observations from a re-analysis of the deposited data

Results flagged for a closer look

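In stiff IPN, 5 of the 6 polyadenylated histone genes had a higher value in replicate 2 than in replicate 1, while in each of the other 3 gels the same genes had a lower one. The difference on the log2(value + 1) scale in stiff IPN was 0.0212 for HIST1H1C, 0.41 for HIST1H2AC, 0.53 for HIST1H2BD, 0.47 for HIST1H2BK and 1.33 for HIST2H2BE. HIST1H1C had nearly the same value in both stiff IPN libraries (336 and 341 normalized counts). In the other gels these 5 genes differed by -0.19 (HIST1H2BD in stiff col) to -1.99 (HIST1H1C in soft col:rBM). HIST1H2BC was lower in replicate 2 in all 4 gels. The difference between the gels was not tested, since each gel has 1 pair of libraries. Stiff IPN replicate 2 had the fewest estimated reads on genes (13065615), and its summed proliferation genes (20821 normalized counts) were below those of the other replicate 2 libraries (30043 to 33363). The part of either in the difference was not tested.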

How the results depend on the processing

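Over the other settings chosen at the outset, 722 values were unchanged by the rule for their kind. A gene had to keep its direction and its side of the threshold. A count of genes called had to stay near its main value, and a median within the spread, whatever its sign. The median for stiff IPN against soft IPN turned negative without soft IPN replicate 2 and is among the 722. Among the rest, 36 values of single genes changed sign, 19 (a gene or a count of genes) lost a call, 10 gained one and 7 medians moved by more than the spread. All reversals came from leaving out 1 library, which leaves a gel with 1 sample that is assumed to vary like the others. Over these left-out libraries, log2 fold changes for stiff IPN against soft IPN ran from -0.63 to 0.93 for HIST1H1C, -0.52 to 0.66 for HIST1H2AC, -0.12 to 2.29 for HIST1H2BC, -0.19 to 1.01 for HIST1H2BD and -0.15 to 0.71 for HIST1H2BK. The log2 fold changes for stiff col against soft col:rBM ran from -1.11 to 0.36 for the median of the 6 genes, -1.54 to 0.45 for HIST1H1C, -1.02 to 0.18 for HIST1H2AC, -1.30 to 0.79 for HIST1H2BC, -1.21 to 0.16 for HIST1H2BD, -0.44 to 0.28 for HIST1H2BK and -0.69 to 0.53 for HIST2H2BE. Those for stiff col against stiff IPN ran from -0.83 to 0.034 for HIST1H2AC. Between the soft gels, those for soft col:rBM against soft IPN ran from -0.71 to 0.57 for the median of the 6 genes, -1.31 to 0.67 for HIST1H1C, -0.51 to 0.69 for HIST1H2AC, -0.49 to 1.92 for HIST1H2BC, -0.91 to 0.46 for HIST1H2BD, -0.64 to 0.22 for HIST1H2BK and -0.81 to 0.41 for HIST2H2BE. Values for the difference between the stiffness effects ran from -1.64 to -0.034 for the median of the 6 genes, -1.69 to 0.30 for HIST1H1C, -1.09 to 0.11 for HIST1H2AC and -0.80 to 0.063 for HIST1H2BK. The cause of the reversals was not tested. No polyadenylated histone gene was called between gels under any setting chosen at the outset, the replicate block included, and with the block fitted to the compared gels only, a setting chosen after seeing the data, 1 was called (HIST1H1C, stiff col against soft col:rBM). Between the trials 2 of the 6 were called. The count was 1 with a value of at least 10 required in every library, which left HIST1H2BC untested, and 1 without trend and robust moderation, where the adjusted p of HIST1H1C was 0.0509 in limma. It was 6 with both stiff IPN libraries left out (chosen after seeing the data) and 0 to 6 when leaving out each library, with 0 without any soft IPN or soft col:rBM library, 1 without a stiff col library and 6 without a stiff IPN library. With the gel as a block, leaving out 1 library takes its gel out of this comparison. With the replicate number as a block, which pairs the libraries by that number, genes called among all tested rose from 0 to 511 for stiff IPN against soft IPN and from 0 to 330 for stiff col against stiff IPN. At 2.41 to 3.73 normalized counts for 3 reads, depth limits HIST1H2BC and most other histone genes.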
